A study of Mus musculus with 16 samples.

Results

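The SR proteins (Srsf genes), the heterogeneous nuclear ribonucleoproteins (Hnrnp genes) and the RBM proteins (Rbm genes) were examined in livers that had lost Matr3. Genes were taken by symbol: every gene present in the male and in the female count table whose symbol starts with Srsf, Hnrnp or Rbm and a digit, without Hnrnpl, Hnrnpm, Hnrnpk and the pseudogenes. This gave 66 of the 23167 genes found in both tables, namely 11 Srsf, 17 Hnrnp and 38 Rbm genes. Of these, 65 code for a protein, and Rbm3os, an RNA antisense to Rbm3, came in by its name. The rule uses gene symbols only.

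Poly(A) RNA was sequenced from 16 livers, 4 in each of 4 groups, with 1 library per mouse. Floxed mice carry Matr3 alleles that Cre recombinase can delete, and LKO mice are littermates, per the labels, that also carry Cre driven by the albumin promoter, which is active in hepatocytes, so that liver cells without albumin expression keep the gene. Each genotype was studied in males and in females. All animals, controls included, had been on a high-fat diet (60 kcal% fat) for 16 weeks from 7 weeks of age and had fasted for 12 hours. By their mouse numbers, floxed males 1 and 2 stand apart from every other animal, so the main counts were also made without both.

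Pre-mRNA is bound as it is made by SR proteins, which mostly promote the use of an exon, and by hnRNPs, which often oppose it and also package, export and stabilise RNA. RBM is a naming class rather than a family by descent: its members share an RNA recognition motif and include spliceosome components, an exon junction subunit, cold-inducible proteins and tissue-specific regulators. Matrin-3 is itself an RNA-binding protein of the nucleus that represses exons, so the comparison asks whether the genes of other splicing regulators respond at the level of mRNA when it is lost.

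Matr3 checks the genotype labels. It stood at 61.3% of the floxed mean in LKO males and 65.4% in LKO females, with no overlap between genotypes in either sex (exact permutation p = 0.0286 in each, two-sided, 4 against 4, the smallest that 70 regroupings allow). Counts over all exons cannot separate the deleted exons from the rest. In bulk liver, fewer cells of a type and less RNA per cell cannot be told apart, and Matr3 RNA from cells without Cre remains in these values. The libraries held 30495505 to 36496193 counts, and Alb and the other hepatocyte markers summed to at least 32407 CPM (counts scaled to library size) in every library, as the tissue label says.

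Members of the 3 families were well expressed. Their median level was 37.9 CPM in males and 41.7 CPM in females, against 11.7 and 12.1 CPM over all genes tested. Per kilobase of exon the highest were Srsf5, an SR protein, at 83.3 CPM, Hnrnpa2b1, a binder of nascent RNA, at 59.8, Srsf2, a defining protein of nuclear speckles, at 59.0 and Hnrnpab at 56.7. The highest Rbm gene per kilobase was Rbm17, a splicing factor of the spliceosome, at 18.5 CPM. Replicate spread was small: the median coefficient of variation of the members lay between 5.17% and 7.73% in the 4 groups, against 9.20% to 13.8% over all genes.

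A few members were at the edge of detection. Srsf12 had at most 2 counts in any library, Rbm8a2, a relative of Rbm8a, at most 3, and Rbm44 at most 4. Rbm42 had at most 6 counts, and 75.4% of its exonic bases are shared with the overlapping gene Gm21982 on the same strand, so its reads may have been given to neither or to the other gene. Likewise 60.5% of the exonic bases of Rbm4 lie in a readthrough gene, Gm21992, and 33.1% of those of Rbm12 in Cpne1 or Gm28036, which makes their counts uncertain. A filter on low counts left 60 members tested in males (without Rbm3os, Rbm42, Rbm44, Rbm46, Rbm8a2 and Srsf12), 59 in females (also without Rbm24) and 62 in the fit of all 16 libraries.

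Loss of Matr3 called no member in males. The test was the quasi-likelihood F-test of edgeR with Benjamini-Hochberg adjustment over all genes, called at an adjusted p under 0.05, and it called 1.04% of all genes in males (0.528% higher, 0.514% lower). At an unadjusted p under 0.05 there were 7 members of 60, 1 higher and 6 lower, where 12.3% of all genes passed. DESeq2 and limma-voom also called none. Groups did not overlap for 3 members, Hnrnph2, Srsf7 and Rbm24, against 8.14% of all genes. Rbm24, also the 1 higher member, passed the filter on low counts mostly through LKO libraries.

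The male intervals were narrow. For 56 of 60 members (93.3%) the 95% interval of the fold change lay within 1.5-fold either way, against 67.3% of all genes. Of genes at least as high as the members' lower quartile, 15.2 CPM, 93.2% had such an interval. The members whose interval reached past 1.5-fold were Rbm20, Rbm24, Rbm4 and Rbm43, so their intervals include a change of that size. The estimates leaned slightly down, with 14 above 0 and 46 below and a median log2 fold change of -0.05, where the median of all genes was -0.01.

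**Figure D1:**
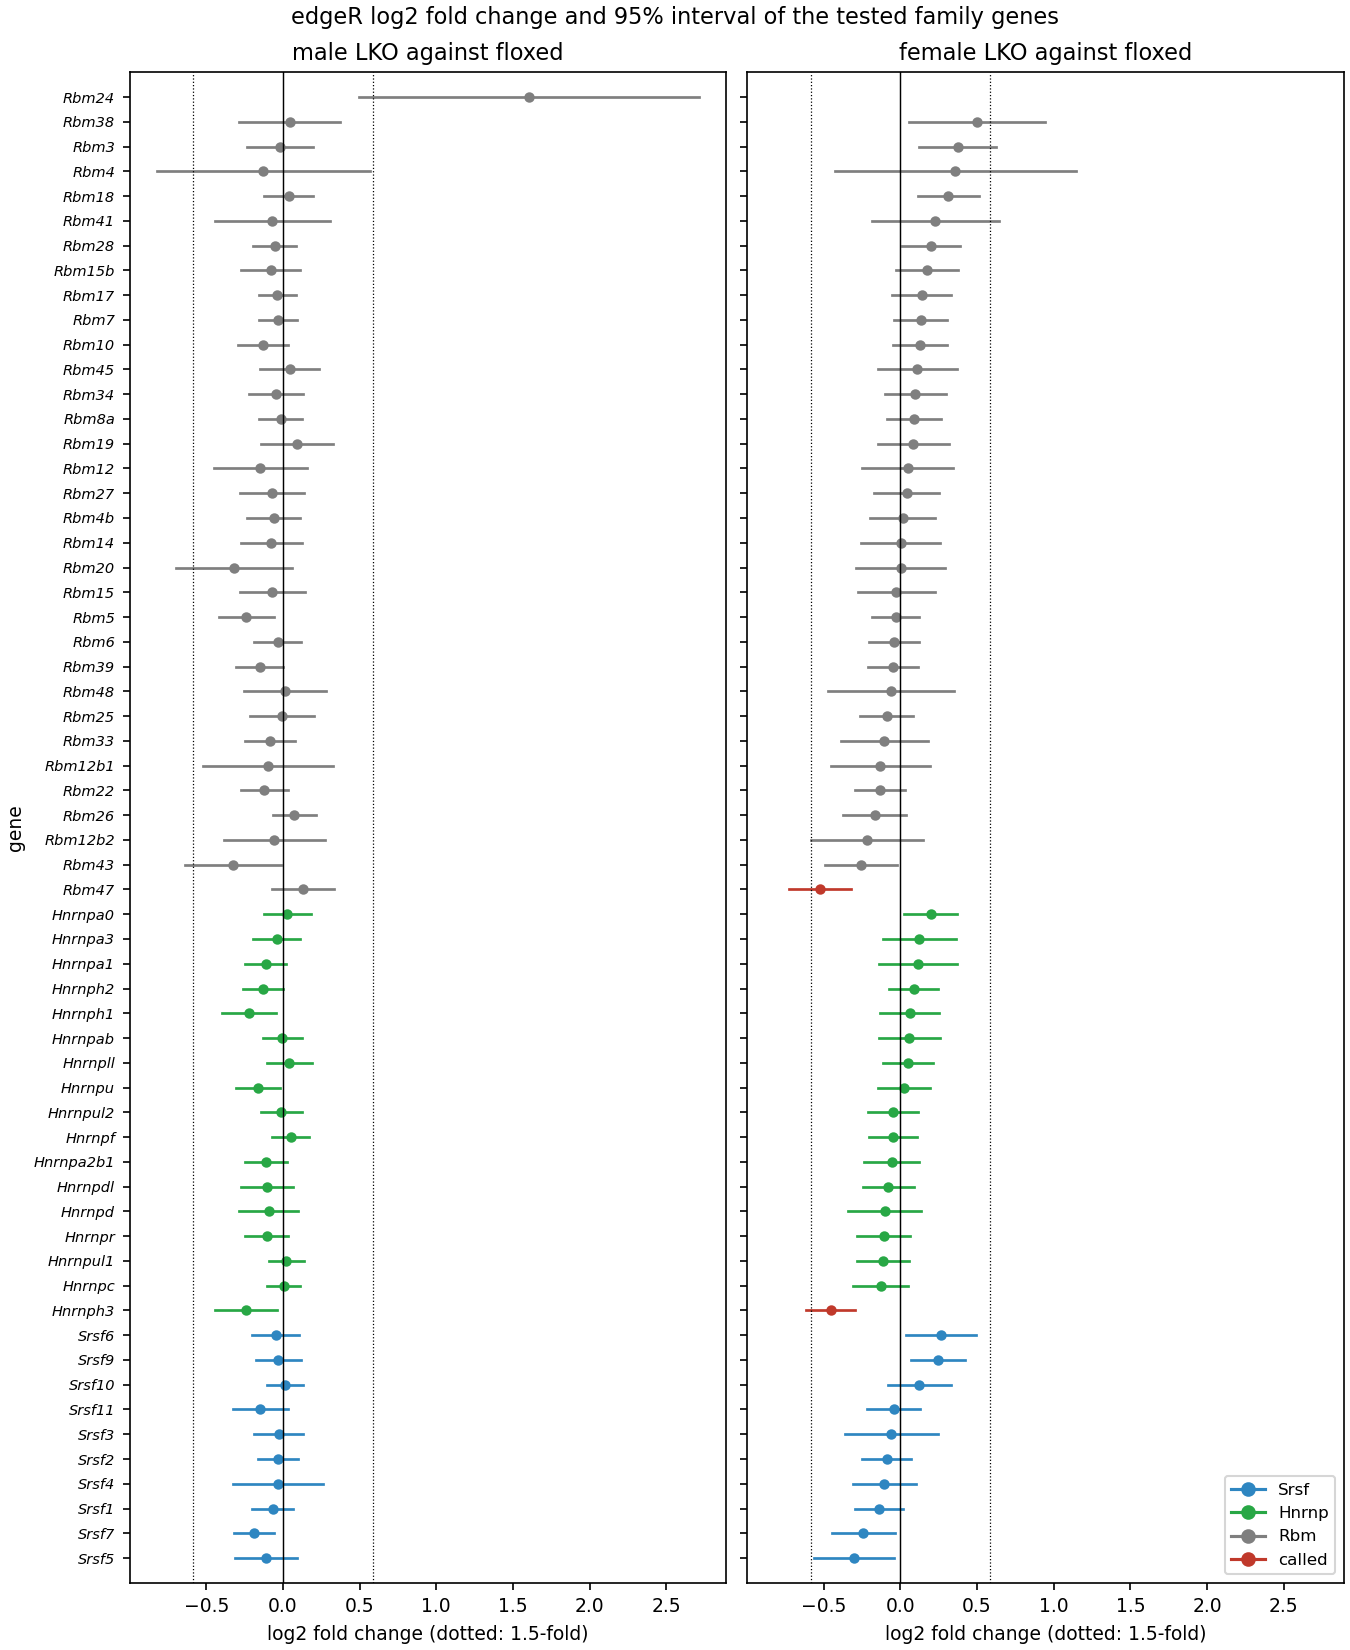
Log2 fold change of LKO against floxed (x axis) with its 95% interval for each tested gene of the 3 families (y axis), males on the left and females on the right, dotted lines at 1.5-fold; Rbm24 was not tested in females. Most intervals lie between the dotted lines (56 of 60 in males, 53 of 59 in females), and the red points in females are the called genes Hnrnph3 and Rbm47.

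Within the families the largest male estimates were modest and not called. Among the Srsf genes Srsf7, an SR protein with a zinc knuckle that also serves mRNA export, had the lowest estimate at -0.19 (SE 0.06, edgeR adjusted p = 0.185), and Srsf10, the SR protein that represses splicing when dephosphorylated after heat shock, the highest at 0.01, which became -0.01 without male floxed 1. Among the Hnrnp genes Hnrnph3 was lowest at -0.24 (SE 0.09) and Hnrnpf, a relative of it, highest at 0.05 (SE 0.05). Among the Rbm genes with at least 1 CPM, Rbm43 was lowest at -0.33 (SE 0.14) and Rbm47 highest at 0.13 (SE 0.09). Hnrnph1, Hnrnpu and Rbm5, picked after their values were seen because they complete the set at an unadjusted p under 0.05, had estimates of -0.22, -0.16 and -0.24.

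In females 2 members were called, Hnrnph3 and Rbm47, both lower in LKO livers. That is 2 of 59, or 3.39%, where 9.29% of all genes were called (4.85% lower, 4.44% higher). Of genes of at least 15.9 CPM, a level nearer to that of the members, 12.1% were called. At an unadjusted p under 0.05 there were 12 members, 7 higher and 5 lower, where 27.7% of all genes passed, and groups did not overlap for 6 members, where 15.9% of all genes did not. The estimates were spread evenly, 30 above 0 and 29 below, with a median of 0.00 that matched the median of all genes, 0.00. The interval lay within 1.5-fold for 53 of 59 members (89.8%), against 52.5% of all genes and 76.8% of genes of at least 15.9 CPM, the members' lower quartile. The count of called members was 4 with DESeq2 and 8 in the fit of all 16 libraries, 5 higher (Rbm18, Rbm24, Rbm3, Srsf6 and Srsf9) and 3 lower (Hnrnph3, Rbm47 and Srsf7). The share of all genes called in those fits is not given here, so these counts cannot be set against 9.29%.

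Hnrnph3 encodes a member of the hnRNP H and F group, which binds runs of G. The gene (ENSMUSG00000020069) lies on mm10 chromosome 10 from 63014664 to 63024217, minus strand. In the 4 floxed females it measured 29.5, 31.0, 32.7 and 30.6 CPM, and in the 4 LKO females 20.7, 22.9, 23.0 and 23.9 CPM. Every LKO female was below every floxed female, by 26.9% on average (fold of the means 0.731). The log2 fold change was -0.45 (SE 0.07, edgeR adjusted p = 0.00823), and the call held without any 1 of the 8 libraries, with adjusted p up to 0.031.

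In males Hnrnph3 had 29.7, 24.4, 29.3 and 25.4 CPM in floxed livers 1 to 4 and 26.1, 20.8, 22.0 and 23.1 CPM in LKO livers 5 to 8. The groups overlapped, since LKO 5 lay above floxed 2 and 4, and the log2 fold change of -0.24 was not called (edgeR adjusted p = 0.298). Over both sexes it was -0.35 (SE 0.06, edgeR adjusted p = 0.00227). Its effects in females and males differed by -0.21 (95% interval -0.45 to 0.03), a difference not called (edgeR adjusted p = 0.322). The relatives of Hnrnph3 were not called in females: Hnrnph1 had an estimate of 0.06 (95% interval -0.13 to 0.25), Hnrnph2 of 0.09 (-0.07 to 0.25) and Hnrnpf of -0.05 (-0.20 to 0.11).

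Rbm47 encodes a cofactor of the APOBEC1 enzyme that edits apolipoprotein B mRNA, a reaction that takes place in mouse liver. The gene (ENSMUSG00000070780) lies on mm10 chromosome 5 from 66016549 to 66173118, minus strand. Its values in floxed females were 85.6, 87.5, 85.3 and 84.2 CPM, and those in LKO females were 59.9, 57.5, 69.6 and 51.7 CPM. The floxed values were tightly grouped and all 4 LKO values were lower, by 30.3% on average. The log2 fold change was -0.52 (SE 0.09, edgeR adjusted p = 0.0114), and the call held without any 1 library, with adjusted p up to 0.0411.

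In males Rbm47 had 89.2, 98.2, 100.6 and 85.1 CPM in floxed livers and 95.4, 88.5, 114.2 and 111.0 CPM in LKO livers. The genotypes overlapped, and the log2 fold change was 0.13 (95% interval -0.07 to 0.34, edgeR adjusted p = 0.612). Rbm47 was the only member called for a difference between the sexes, 1 of 62 (1.61%), where 4.42% of all genes were called. Female minus male was -0.65 (SE 0.13, edgeR adjusted p = 0.0144). Without male floxed 1 and 2 together the difference was -0.66 and was not called (edgeR adjusted p = 0.0533).

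Cell-type markers also moved in females, beside these 2 genes. Of the markers of hepatocytes 2 of 8 were called higher and 2 lower, and their sum went from 56989 to 66097 CPM in floxed to 32407 to 49499 CPM in LKO females. Of 6 sinusoidal endothelial markers 4 were called lower (sums of 153 to 170 against 117 to 140 CPM), of 5 tested cholangiocyte markers 1 was lower (36.0 to 53.3 against 27.5 to 40.4 CPM), and of 6 stellate and fibroblast markers 1 was lower (255 to 318 against 236 to 255 CPM). No marker was called among those of macrophages (sums of 421 to 676 against 502 to 803 CPM), neutrophils (4.68 to 61.3 against 18.4 to 90.8 CPM), T and NK cells (3.65 to 6.63 against 1.89 to 6.61 CPM), B cells, adipocytes or erythroid cells. None of 6 proliferation markers was called either, but all 6 estimates were below 0, 4 of them at an unadjusted p under 0.05, with a median of -0.88 on the log2 scale and sums of 7.63 to 18.9 CPM in floxed against 7.32 to 9.63 CPM in LKO females. No defining marker was at 0 in all libraries of either female group except 1 of 5 adipocyte markers in LKO females. In males no marker was called in any list, but the adipocyte sums were 24.4 to 37.5 CPM in floxed and 51.8 to 82.5 CPM in LKO livers. Male estimates were above 0 for all 6 sinusoidal endothelial, 6 of 7 macrophage and all 4 B cell markers. They were below 0 for 7 of 8 hepatocyte, 5 of 6 stellate and fibroblast and all 5 T and NK markers. The part of cell composition in the changes of Hnrnph3 and Rbm47 was not tested.

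The other female estimates at the ends of each family did not pass the test in the fit of females alone. Rbm38, a p53 target that stabilises mRNAs, had the highest Rbm estimate at 0.50 (SE 0.20, edgeR adjusted p = 0.137), and was called at 0.70 without female floxed 4, whose 4.11 CPM stood above the other floxed females at 2.44 to 2.71 CPM. Only 1 of 8 omissions of a single library gave a call for Rbm38, and the edgeR adjusted p rose to as much as 0.315 in the others. Srsf6, an SR protein, had the highest Srsf estimate at 0.27 (edgeR adjusted p = 0.124) and Srsf5 the lowest at -0.30 (edgeR adjusted p = 0.126). Hnrnpa0, a binder of AU-rich elements, had the highest Hnrnp estimate at 0.20 (edgeR adjusted p = 0.129). In the fit of all 16 libraries Srsf6 was called in females (edgeR adjusted p = 0.041).

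Picked after their values were seen because they lay next to the threshold, Rbm18, Rbm3 and Srsf9 had female estimates of 0.31, 0.38 and 0.25, with edgeR adjusted p of 0.0553, 0.0637 and 0.0785. In the fit of all 16 libraries the same estimates were called in females, with edgeR adjusted p of 0.0132, 0.0281 and 0.0227. Rbm3, the cold-inducible RNA-binding protein, had 35.8, 37.8, 40.4 and 35.5 CPM in floxed and 52.5, 38.0, 55.2 and 48.3 CPM in LKO females. LKO 6 lay within the floxed range and the other 3 above it, and without LKO 6 Rbm3 was called at 0.48 (edgeR adjusted p = 0.025). That was 1 of 8 omissions of a single library, and the edgeR adjusted p rose to as much as 0.159 in the others. Srsf9 was called without female floxed 4 and without female LKO 7 (edgeR adjusted p = 0.0438 and 0.0403). Those were 2 of 8 such omissions, and the edgeR adjusted p rose to as much as 0.198 in the others.

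Over both sexes 4 of 62 members were called, 1 higher and 3 lower, where 8.55% of all genes were called (4.05% higher, 4.5% lower). The 3 lower were Hnrnph3, Srsf7 and Rbm43, and the 1 higher was Rbm24, which passed the filter on low counts mostly through LKO libraries. In this fit 15 members passed an unadjusted p under 0.05, where 24.6% of all genes did, and the median log2 fold change was -0.03 against -0.01 for all genes. The interval lay within 1.5-fold for 58 of 62 members (93.5%), against 70.5% of all genes, without a set of genes of like level. Without male floxed 1 and 2, only Hnrnph3 and Rbm24 were called. The plot of the called genes by library shows all 5 that any genotype comparison called.

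**Figure D2:**
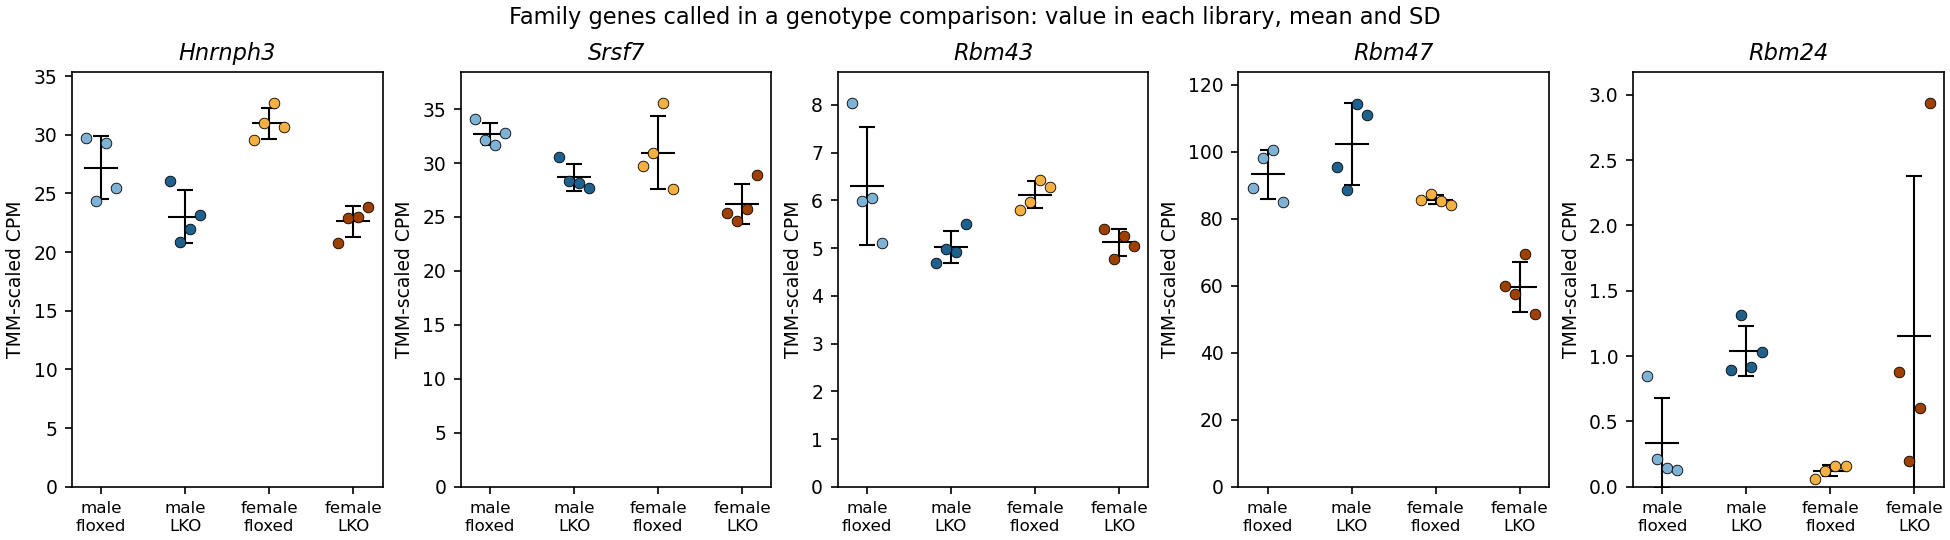
TMM-scaled CPM (y axis, from 0) of the 5 genes called in a genotype comparison, 1 panel per gene, with points for the 4 libraries of each group, a bar at the mean and whiskers of 1 SD, those of Rbm24 cut at 0. LKO and floxed do not overlap for Hnrnph3 and Rbm47 in females, for Srsf7 in males, for Rbm43 in females or, narrowly, for Rbm24 in either sex. The Rbm24 panel shows male floxed 1 near the LKO males and female LKO 8 far above the rest.

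Srsf7 (ENSMUSG00000024097; mm10 chromosome 17, 80200080 to 80207307, minus strand) was slightly lower in LKO livers of both sexes. In males, floxed livers 1 to 4 had 34.1, 32.2, 31.7 and 32.8 CPM and LKO livers 5 to 8 had 30.5, 28.3, 28.2 and 27.7 CPM. The male groups did not overlap. In females, floxed livers had 29.7, 31.0, 35.6 and 27.6 CPM and LKO livers 25.4, 24.7, 25.7 and 28.9 CPM, where LKO 8 lay above floxed 4. The log2 fold change was -0.24 (SE 0.09, edgeR adjusted p = 0.124) in females alone, where the fit of all 16 libraries called it (edgeR adjusted p = 0.0383), and -0.21 (SE 0.05, edgeR adjusted p = 0.022) over both sexes. It was not called without male floxed 1 and 2 (edgeR adjusted p = 0.064). Its closest relative Srsf3 had an estimate of -0.04 over both sexes (95% interval -0.21 to 0.13).

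Rbm43 (ENSMUSG00000036249) was low in all livers and lower in LKO. Male floxed livers 1 to 4 had 8.04, 5.99, 6.06 and 5.10 CPM and male LKO livers 5 to 8 had 4.68, 4.99, 4.92 and 5.49 CPM. Female floxed livers had 5.79, 5.97, 6.42 and 6.28 CPM and female LKO livers 5.41, 4.77, 5.25 and 5.04 CPM. The female groups did not overlap, while in males LKO 8 lay above floxed 4. The log2 fold change over both sexes was -0.29 (SE 0.08, edgeR adjusted p = 0.0425). The call was lost in 17 of 24 alternatives, with adjusted p up to 0.122.

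Rbm24 encodes a splicing regulator best known from heart and skeletal muscle, and was close to undetected in most floxed livers. Its raw counts were 30, 7, 5 and 4 in male floxed 1 to 4 and 31, 44, 30 and 38 in male LKO 5 to 8. They were 2, 4, 5 and 5 in female floxed 1 to 4 and 28, 6, 20 and 95 in female LKO 5 to 8. No LKO library fell below any floxed library of its sex, though male floxed 1 equalled LKO 7 in raw counts and female LKO 6 was 1 count above floxed 3 and 4. The group totals went from 46 to 143 counts in males and from 16 to 149 in females. The log2 fold change over both sexes was 2.40 (SE 0.51, edgeR adjusted p = 0.00971), and it was 1.88 to 2.92 when single libraries were left out. In males alone it was 1.61 (SE 0.50, edgeR adjusted p = 0.194), and it was called without male floxed 1. Rbm24 failed the filter in females alone, and it entered the fit of all 16 libraries through those where it was high, 7 of 8 LKO and 1 of 8 floxed libraries with at least 10 counts. Its inclusion therefore depended on the change itself. The counts above include its call there, over both sexes or in females (3.19, edgeR adjusted p = 0.0102). That call is no support for a response of the members. In males alone Rbm24 passed the filter through LKO 5 to 8 and floxed 1, so the male counts that include it carry the same limit. With no filter the value over both sexes was 2.40 (edgeR adjusted p = 0.00852). Its relative Rbm38, at 2.97 ± 0.771 CPM in female floxed livers (SD, n = 4), was not called in either sex.

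RefSeq sequence upstream of the start was looked at for the 5 called genes. Srsf7 and Rbm24 are shown because they moved in opposite directions and their windows hold stretches outside annotated exons. The window of Hnrnph3 lies wholly in an annotated exon, and Rbm43 and Rbm47 have 2 and 3 listed starts. Both stretches below are from GRCm38.p6, 5′ to 3′ on the gene's strand, and capitals mark a GC box (GGGCGG) or a TATA box (TATATAA) on either strand.
Srsf7, chr17:80207308-80207459, minus strand: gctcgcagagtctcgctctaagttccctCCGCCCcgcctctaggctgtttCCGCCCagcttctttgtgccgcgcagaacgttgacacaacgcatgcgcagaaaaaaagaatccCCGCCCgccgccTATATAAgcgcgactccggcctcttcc
Rbm24, chr13:46418050-46418299, plus strand: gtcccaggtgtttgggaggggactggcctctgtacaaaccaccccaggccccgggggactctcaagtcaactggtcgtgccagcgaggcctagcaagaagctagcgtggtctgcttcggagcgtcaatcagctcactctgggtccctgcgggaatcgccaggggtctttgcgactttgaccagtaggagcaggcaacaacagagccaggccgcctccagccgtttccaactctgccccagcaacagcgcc

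The Srsf7 stretch holds 3 GC boxes and 1 TATATAA, and the Rbm24 stretch holds none of the motifs searched, which also included TATAAA and CCAAT. RefSeq had windows for 55 of the 66 symbols, 72 windows of 250 bases in all, against 32851 windows genome-wide. GGGCGG was in 58.3% of the members' windows and 32.7% of all, CCAAT in 44.4% and 33.8%, TATAAA in 9.72% and 12.4%, and TATATAA in 1.39% and 3.04%. The median GC content was 61.4% for the members' windows and 52.4% for all. These are matches of letters, not measured sites.

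The members were also summed by family, on the TMM scale and as a share of all counts. The Srsf sum was 1067 ± 64.5 CPM in male floxed and 1014 ± 37.4 in male LKO livers, and 1103 ± 55.7 against 1028 ± 45.6 in females (SD, n = 4 each). The Hnrnp sum was 1948 ± 83.7 against 1851 ± 28.9 CPM in males. In females it was 2111 ± 61.5 against 2113 ± 124 CPM. The Rbm sum was 876 ± 31.9 against 850 ± 16.7 CPM in males and 859 ± 28.3 against 852 ± 24.3 CPM in females. On this scale the floxed and LKO ranges overlapped for each family in each sex. As shares of all counts, without TMM scaling, they did not overlap for 2 of the 6. The female Srsf share was 0.105% to 0.120% in floxed and 0.0959% to 0.103% in LKO livers, and the male Hnrnp share was 0.188% to 0.203% against 0.183% to 0.187%. The mean female Hnrnp share was 0.217% in floxed and 0.205% in LKO livers, with overlapping ranges. The TMM factors themselves separated the female genotypes, at 1.01 to 1.04 in floxed and 0.961 to 0.990 in LKO libraries. Unscaled female shares therefore include a difference between libraries that TMM scaling takes out. Sums of other genes were not set beside these shares.

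**Figure D3:**
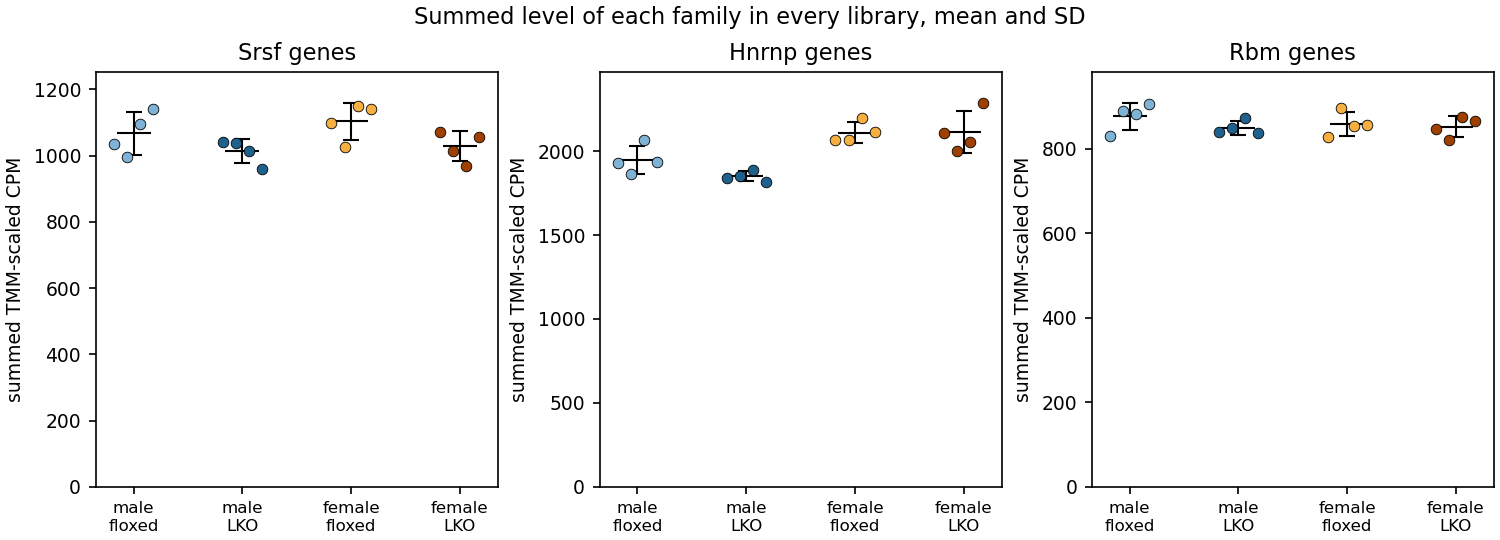
Summed TMM-scaled CPM (y axis, from 0) of the Srsf, Hnrnp and Rbm genes, with points for the 4 libraries of each group, a bar at the mean and whiskers of 1 SD. On this scale the ranges of the LKO and floxed points overlap in each family and sex, as for Srsf in males at 1067 ± 64.5 in floxed against 1014 ± 37.4 in LKO livers.

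Over both sexes the Srsf genes had 1 of 10 tested members called (10%), the Hnrnp genes 1 of 17 (5.88%) and the Rbm genes 2 of 35 (5.71%), beside 8.55% of all genes. Their medians were -0.06, -0.05 and -0.01 on the log2 scale. The Rbm calls include Rbm24, whose inclusion depended on the change itself.

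A difference between the sexes in the effect of genotype was tested for all 62 members, with Rbm47 as the call, where 1.97% of all genes were called higher and 2.45% lower. The interval of the difference lay within 1.5-fold for 52 of 62 members (83.9%), against 41.7% of all genes. Genes of like level were not set apart for this comparison, and the members lie above the median level of all genes. At an unadjusted p under 0.05 there were 11 members, 9 with the higher effect in females and 2 with the lower. Of all genes 20.5% passed, 1627 with the higher and 1672 with the lower effect in females. The median difference was 0.07 on the log2 scale, against 0.01 for all genes, with 38 above 0 and 24 below. Rbm3os came next after Rbm47 at 2.45 (SE 0.68, edgeR adjusted p = 0.0509), from totals of 31 and 14 counts in male floxed and LKO and 19 and 47 in female floxed and LKO livers, and was called without male floxed 4 or without female LKO 7. It failed the filter in each sex alone. It entered the fit of all 16 libraries through male floxed 2 and female LKO 5, 6 and 7, with 13, 12, 14 and 12 counts. Its inclusion therefore depended on the change itself, and its estimate is no support for a difference. The 11, the 9 and the 38 above include Rbm3os and carry the same limit. Rbm3os overlaps Rbm3 on the opposite strand over 9.68% of its exonic bases, and the strand setting of the counting is not given in the sources used here.

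Between floxed females and floxed males 9 of 62 members were called (14.5%), where 22.9% of all genes were (11.3% higher, 11.6% lower), and sex cannot be told apart from the deposited table that holds it. At an unadjusted p under 0.05 there were 16 members, where 36% of all genes passed, and 56 of 62 intervals (90.3%) lay within 1.5-fold, against 51.8% of all genes. Genes of like level were not set apart here either. Hnrnpa0, Hnrnpdl and Hnrnpd were higher in females, the last of these also known as AUF1, a regulator of mRNA decay. Rbm26, Srsf11, Rbm28, Hnrnpab, Rbm25 and Rbm18 were lower in females. Without female floxed 1 the call remained for 5 of the 9: Hnrnpa0, Hnrnpab, Rbm26, Rbm28 and Srsf11.

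On a scale shared by all 16 libraries, Hnrnpa0 had 77.6, 65.1, 65.7 and 69.5 CPM in male floxed and 89.6, 96.1, 106.1 and 100.1 CPM in female floxed livers. The sexes did not overlap, and the log2 difference was 0.50 (SE 0.07, edgeR adjusted p = 0.000132). Rbm26 had 22.1, 23.9, 24.9 and 25.8 CPM in males and 17.5, 20.0, 21.4 and 19.8 in females, a log2 difference of -0.30 (SE 0.08, edgeR adjusted p = 0.0099). Srsf11 had 99.8, 109.3, 102.0 and 123.6 CPM in males and 81.3, 96.7, 89.4 and 86.2 in females, a log2 difference of -0.30 (SE 0.08, edgeR adjusted p = 0.0132). Neither gene overlapped between the sexes. Of 7 macrophage markers 6 were called higher in floxed females (sums of 421 to 676 CPM against 139 to 224 in floxed males, each scaled within its sex), as were 3 of 4 tested neutrophil markers (4.68 to 61.3 against 2.31 to 4.90 CPM). Called lower were 3 of 6 stellate and fibroblast markers (255 to 318 against 246 to 474 CPM), 2 of 8 hepatocyte markers (56989 to 66097 against 60713 to 78587 CPM), 1 of 6 sinusoidal endothelial, 1 of 4 erythroid and 1 of 2 tested adipocyte markers. Of 5 tested cholangiocyte markers 1 was higher and 1 lower, and no T and NK, B or proliferation marker was called. The part of these cells in the differences between the sexes was not tested.

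**Figure D4:**
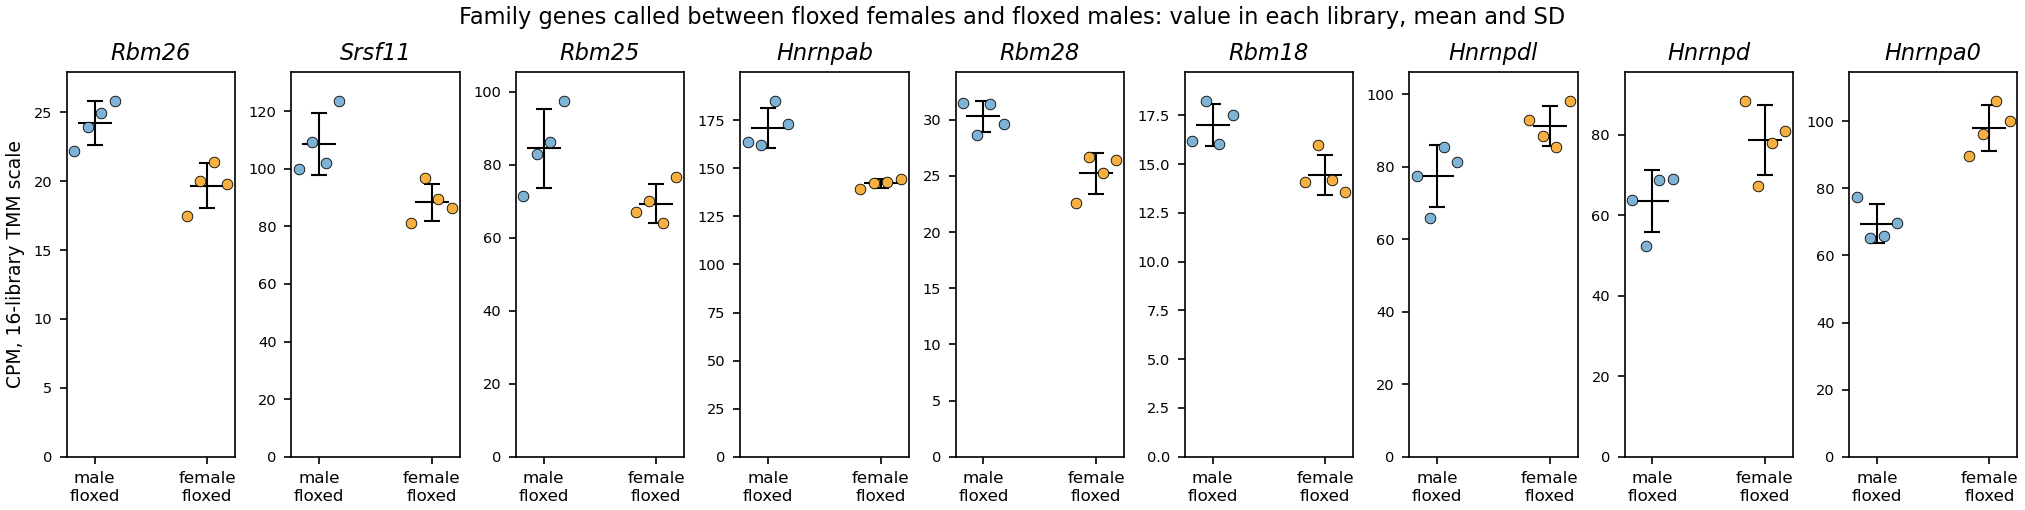
CPM on the scale of all 16 libraries (y axis, from 0) of the 9 genes called between floxed females and floxed males, with points for the 4 libraries of each group, a bar at the mean and whiskers of 1 SD. The first 6 panels are lower in females, and Hnrnpdl, Hnrnpd and Hnrnpa0 are higher, with Hnrnpa0 at 89.6 CPM or more in every female and 77.6 or less in every male.

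Genes that act with these proteins were tested in the same fits. Lists of SR protein kinases and phosphatases (21 genes in both tables), other alternative splicing regulators (46), the core spliceosome (53), the exon junction complex with nonsense-mediated decay (16) and the heat shock response (15) were set beside the families. In males edgeR called none of the 20, 42, 53, 16 and 15 genes tested, and 4, 5, 7, 2 and 0 of them had an unadjusted p under 0.05. Of all genes 1.04% were called in males and 12.3% passed that unadjusted threshold. Their medians in males were -0.01, -0.08, -0.02, -0.05 and -0.01 on the log2 scale, against -0.01 for all genes.

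In females each list had at most 1 call, where 9.29% of all genes were called: 0%, 2.38%, 1.89%, 6.25% and 6.67% of the genes tested in the 5 lists, in the order above. Luc7l2, a U1-associated protein, fell by 0.31 (edgeR adjusted p = 0.0439), Prpf8, the central scaffold of the spliceosome, by 0.32 (edgeR adjusted p = 0.0413), while Smg5 of nonsense-mediated decay rose by 0.37 (edgeR adjusted p = 0.039) and Bag3, a co-chaperone, by 0.49 (edgeR adjusted p = 0.00788). At an unadjusted p under 0.05 there were 2 of 20, 9 of 42, 9 of 53, 6 of 16 and 3 of 15 genes, where 27.7% of all genes passed. The list medians were 0.04, 0.01, 0.02, 0.02 and 0.06, against 0.00 for all genes.

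Over both sexes Luc7l2 fell by 0.30 (SE 0.05, edgeR adjusted p = 0.00272), the smallest p of the 5 lists, with -0.30 in males, where it was not called (edgeR adjusted p = 0.0775). Pnisr, an SR-related protein, Prpf3 and Smg6 were also called lower over both sexes, at -0.22, -0.19 and -0.23, and Prpf19 and Smg5 higher at 0.16 and 0.17. These are 4.76%, 2.33%, 3.77%, 12.5% and 0% of the genes tested in the 5 lists, where 8.55% of all genes were called. For the difference of the effects, U2af1, the small subunit of the factor that reads the 3′ splice site, had 0.56 (edgeR adjusted p = 0.0321), Scaf1 0.40, Smg5 0.40, Elavl1, a stabiliser of mRNAs, 0.38 and Prpf8 -0.38, and these 5 were the calls of the lists, where 4.42% of all genes were called.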

How the data were processed

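The authors deposited whole-number counts per gene, 1 table for males (24623 Ensembl identifiers) and 1 for females (24840), with 8 libraries in each. Libraries were directional and poly(A)-selected by Novogene, per the labels' protocols. The submitters' processing notes name mm10; the aligner, counter and strand setting are not given in the sources used here. Symbols and coordinates came from GENCODE M21, promoter windows from RefSeq (GRCm38.p6).

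Genes passing filterByExpr (a count of 10, a total of 15) were TMM-scaled. The test was edgeR's two-sided quasi-likelihood F-test (edgeR 4.0.16, R 4.3.3), adjusted by Benjamini-Hochberg over all genes. Each sex was fitted alone and CPM scaled within it, and a fit of 16 libraries gave contrasts across sexes. Each edgeR p-value sets a difference between groups against the spread between these mice, estimated with information from all genes. In the fit of 16 libraries this spread came from both sexes.

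Members, lists and tests were chosen with earlier results of these data known. Named are called members, the largest rise and fall per family and sex from 1 CPM, the most abundant, the 3 smallest p between floxed sexes, list genes with the smallest p, relatives of called members, and genes said to be picked later. Also named are members under the filter or sharing many exonic bases, and members with a wide interval or no overlap in males. Alternatives were DESeq2 1.42.0, limma-voom (limma 3.58.1), 2 other scalings, 2 other filters, the 16-library fit, a replicate block, and omission of each library or of male floxed 1 and 2 (mice 2710 and 2711). Omission of female floxed 4 and LKO 7, a pair taken from earlier results of these data, was added after the data were seen. No replicate pair looked like a copy (smallest chi-square per degree of freedom 12.7). The procedure was also run on simulated counts, with the same dispersion for every gene and known changes of 1.5-fold or more. The outcome is not given here, and smaller changes were not simulated.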

Additional observations from a re-analysis of the deposited data

Results flagged for a closer look

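For 16 of the genes named, each of the 4 groups was checked for a library far from the rest, and 6 of the 64 groups had one. For independent groups of normal values the rate is about 1 in 20. The genes share libraries and were mostly picked by their values, so that rate is only a guide. In males, floxed 1 stood apart for Rbm24 (0.849 CPM, the others at 0.125 to 0.213) and for Srsf10 (33.9 CPM, the others at 36.2 to 36.4), and floxed 2 for Srsf5 (259.8 CPM, the others at 329 to 339). In females, floxed 4 stood apart for Rbm38 (4.11 CPM, the others at 2.44 to 2.71), and LKO 8 for Hnrnpf (115.0 CPM, the others at 105.5 to 107.1) and Rbm18 (20.5 CPM, the others at 17.2 to 17.6).

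The effect of genotype on Rbm47 differed between the sexes, with a log2 difference of -0.65 for female minus male (edgeR adjusted p = 0.0144), from -0.52 in females and 0.13 in males.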

How the results depend on the processing

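The male count of 0 called members stayed at 0 in 14 of 16 alternatives, lay between 0 and 1 with single libraries left out, and was 1 (Rbm24) without male floxed 1 and also without male floxed 1 and 2. The female count of 2 was 4 with DESeq2, 8 in the 16-library fit (5 higher, 3 lower), 2 to 4 with single libraries left out (4 without female floxed 4 or female LKO 6) and 5 without female floxed 4 and female LKO 7. Hnrnph3 and Rbm47 were called in females in all 16 alternatives run. Over both sexes the 4 calls were 3 to 6 with single libraries left out, 2 without male floxed 1 and 2, and 10 (5 higher, 5 lower) without female floxed 4 and female LKO 7. The 1 call for the difference of the effects was 1 to 2 with single libraries left out, 0 without male floxed 1 and 2, and 5 without female floxed 4 and female LKO 7. The 9 calls between floxed sexes were 5 to 11 with single libraries left out, the 5 without female floxed 1, and 12 with DESeq2, upper quartile scaling or a filter of 1 CPM in 4 libraries. None of these counts is set beside the share of all genes called in the same alternative. A rise or fall in them therefore cannot be read as a response of the members. Srsf10 in males changed from 0.0114 to -0.0131 without male floxed 1 and -0.0146 without male floxed 1 and 2, and lay between -0.0131 and 0.0217 with single libraries left out. The cause of these changes was not tested. Floxed mice are numbered 1 to 4 and LKO mice 5 to 8, so a replicate block could be fitted only between the sexes. It gave 1 call for the difference (Rbm47, -0.66) and 8 between floxed sexes. Same-numbered mice of the 2 sexes had deviations correlated between -0.16 and 0.19, so the numbers do not pair them. Depth limits Rbm24, Rbm3os and the untested members.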
